A study of Mus musculus with 24 samples.

Results

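The 16 cerebellar tumours of GnasCKO mice were set against all 8 arrays of normal mouse cerebellum, to ask which genes lay outside the range of both developing and adult tissue. A gene was counted as higher when its mean over the 16 tumours lay at least 1 log2 unit, a doubling of intensity, above the highest of the 8 normal arrays, and as lower when it lay at least 1 below the lowest. Of 10983 genes tested, 192 were higher (1.75%) and 208 were lower (1.89%). The tested genes were those of 20893 measured whose level passed the median of the whole table on at least 3 arrays. Another 41 higher and 14 lower genes met the rule among the dim genes left out, and they are not described.

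Each sample was hybridised to 1 Affymetrix gene array of a single colour, and levels are log2 intensities. The hGFAP:GnasCKO and Oligo1:GnasCKO tumours, 8 of each and named hGFAP and Oligo1 tumours here, were taken at endpoint from mice of a mixed C57BL/6 x 129 background, where GnasCKO marks a conditional knockout of Gnas. The sources used here give neither their ages nor the constructs behind the driver names. The 8 wild-type cerebella were single arrays of embryonic day 15, embryonic day 18 and postnatal day 0, all C57BL/6, and 5 adults. The adults were postnatal days 95 and 122 of C57BL/6, and an adult of unstated age and 2 of postnatal day 60 of the mixed background. Between postnatal day 0 and postnatal day 60 there was no normal array, so that "every normal stage" means these ages. The labels call the tumours biological replicates, and nothing says whether some came from the same mouse, so p-values measure the spread between these samples.

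Gnas encodes the stimulatory G protein subunit Gsα, which switches on adenylyl cyclase and so raises cyclic AMP and protein kinase A activity. Protein kinase A in turn restrains the Sonic Hedgehog (SHH) pathway, in which the mitogen SHH releases the receptor Smo and the GLI transcription factors. SHH drives the division of cerebellar granule neuron precursors, which continues after birth in the mouse, and medulloblastoma of the SHH kind grows from these cells. A bulk sample of such a tumour also holds microglia, astrocytes, vessels and whatever neurons remain around it, and fewer cells of a type and less RNA per cell cannot be told apart in it.

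One tumour stood apart before any gene was considered. hGFAP tumour 5 had 7903 genes above the table's median, against 8774 to 9362 on the other arrays. It lay above every normal array for 55 of the 192 higher genes (28.6%) and below every normal array for 75 of the 208 lower genes (36.1%), whereas each of the other 15 tumours did so for at least 182 and at least 159. It was the tumour nearest to the normal arrays for 168 of the higher and 171 of the lower genes. Without it, 262 genes were higher and 242 were lower, and these included every one of the 192 and the 208. The smaller share of lower genes beyond the normal range in hGFAP tumours 3 and 6 (76.4% in each) is visible in the plot of shares by tumour. 

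**Figure D1:**
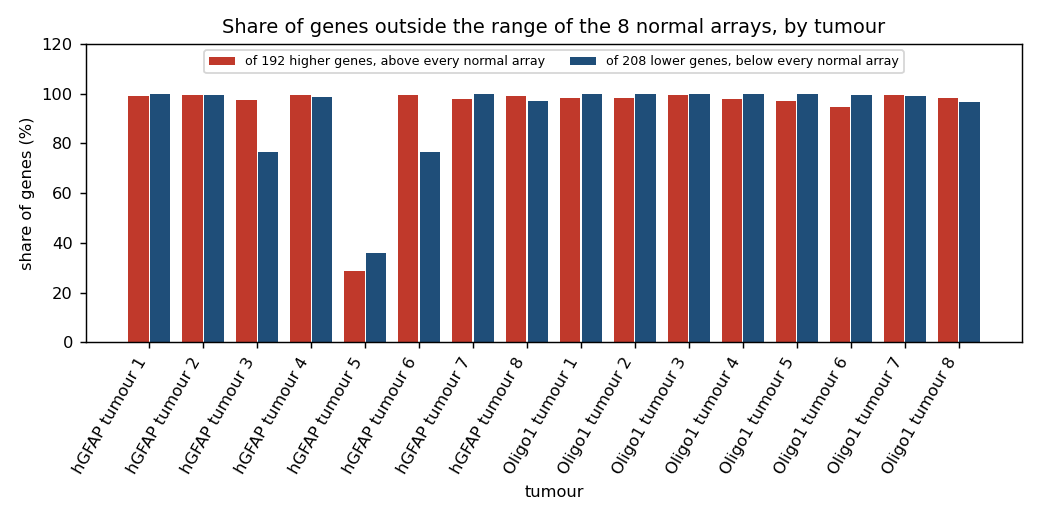
For each of the 16 tumours (horizontal axis), the percentage of the 192 higher genes with a level above every normal array (red bars) and of the 208 lower genes with a level below every normal array (blue bars). hGFAP tumour 5 reaches 28.6% and 36.1%, hGFAP tumours 3 and 6 reach 76.4% of the lower genes, and the rest lie at 94.8% or more in both.

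Gnas itself was among the lower genes. Its level was 9.69 to 9.87 in the 5 adult arrays, 9.98, 9.93 and 9.87 at embryonic days 15 and 18 and postnatal day 0, and 6.96 at the lowest, 8.00 at the median and 9.33 at the highest in the tumours. All 16 tumours lay below all 8 normal arrays, and the gap between the groups was 0.36. The mean difference was -1.80 from adult cerebellum (SE 0.26, limma adjusted p = 4.65e-06) and -1.94 from developing cerebellum (SE 0.32, adjusted p = 6.48e-05). The deleted part of the gene is not named in the labels, and the 31 probe sets combined here include any outside it, which would check nothing.

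Among 27 tested genes of the cyclic AMP route (Gs, its receptors, adenylyl cyclases, protein kinase A subunits and phosphodiesterases), 3 were lower by the rule, Gnas, Gnal and Pde10a, and none was higher. Gnal encodes Gαolf, the close relative of Gsα that couples to adenylyl cyclase in olfactory and striatal neurons. It ranged from 9.96 to 10.68 in normal cerebellum and from 5.61 through a median of 7.71 to 10.11 in the tumours, with only hGFAP tumour 5 inside the normal range. Pde10a, a phosphodiesterase that breaks down cyclic AMP and cyclic GMP, ranged from 9.19 to 10.27 in normal tissue and from 6.42 through 7.72 to 9.44 in the tumours, of which 15 lay below every normal array. Adcy1, a calcium-stimulated adenylyl cyclase of neurons, had the largest difference from adult in the list without meeting the rule. Its mean of 8.95 in the tumours stood against 11.71 in adult and 9.41 in developing cerebellum, close to the latter. The median difference of the 27 genes was -0.41 from adult and -0.35 from developing tissue, against 0.01 and 0.09 over all genes tested.

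Genes beyond the adult range were divided by how the tumours stood to the developing arrays. The tumour mean lay at least 1 above every adult array for 906 genes. Of these, 192 (21.2%) also lay at least 1 above every developing array, 535 lay above the developing arrays by less than 1, and 179 (19.8%) did not exceed the highest developing array. Downwards, 963 genes lay at least 1 below every adult array. Of these, 208 (21.6%) were also at least 1 below every developing array, 389 were below them by less, and 366 (38%) were not below the lowest of them. The array that set the limit was a developing one for 112 of the higher and 125 of the lower genes, and an adult one for the others. When the single postnatal day 0 array was left out, the higher genes numbered 289 rather than 192, so the upper count rested in part on that array.

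**Figure D2:**
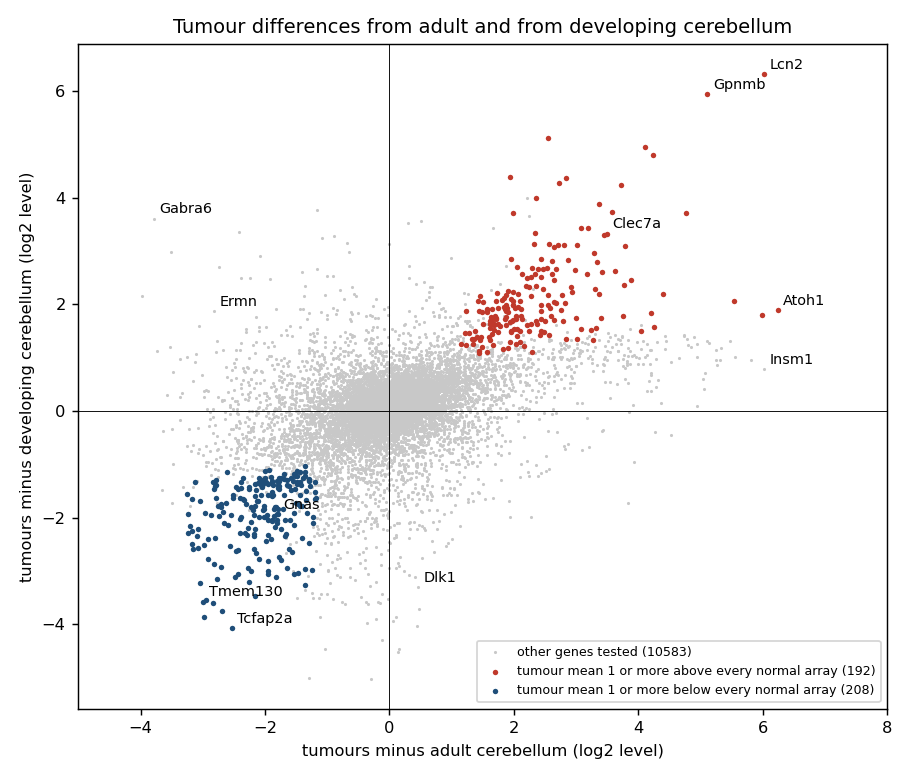
Each point is one of the 10983 tested genes, placed by its tumour mean minus the adult mean (horizontal, log2) and minus the developing mean (vertical, log2). The 192 higher genes (red) fill the upper right and the 208 lower genes (blue) the lower left. Insm1 (6.02 from adult, 0.79 from developing) differs mainly from adult cerebellum. Gabra6 (-3.78 and 3.61) lies below adult and above developing cerebellum.

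The margins had medians of 1.42 for the higher and 1.33 for the lower genes, and 30 and 26 genes respectively had a margin of at least 2. At the edge of the rule, Map3k1 lay 1.011 above the highest normal array and was counted, while Depdc1a at 0.995 was not, and Efna3 lay 1.005 below the lowest normal array and was counted, while Reep5 at 0.999 was not. All 16 tumours were beyond every normal array for 50 of the higher and 68 of the lower genes. At any margin this held for 0.701% and 2.02% of all genes tested. In limma tests against both adult and developing cerebellum, 189 of the 192 and 200 of the 208 were called, where 11.5% and 10.2% of all genes were called higher and lower in both. Against adult alone limma called 32.7% of all genes higher and 34.5% lower, and against developing alone 22.6% and 17.4%. The same differences chose the genes, so nothing is read from those counts. With strain as a covariate, 65 of the higher and 65 of the lower genes were called in both. Over all genes tested, 141 were then called higher and 411 lower in both, against 1265 and 1118 without the covariate. All developing arrays were C57BL/6 and all tumours mixed, and strain and stage cannot be told apart in the comparison with developing tissue other than through the adult arrays. On 132 of the higher genes every normal array was below the table's median, where background makes up much of the intensity, so that their margins start from near background. These 132 passed the filter through the tumours alone, so the share of a list's tested genes that were higher is not independent of the filter.

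**Figure D3:**
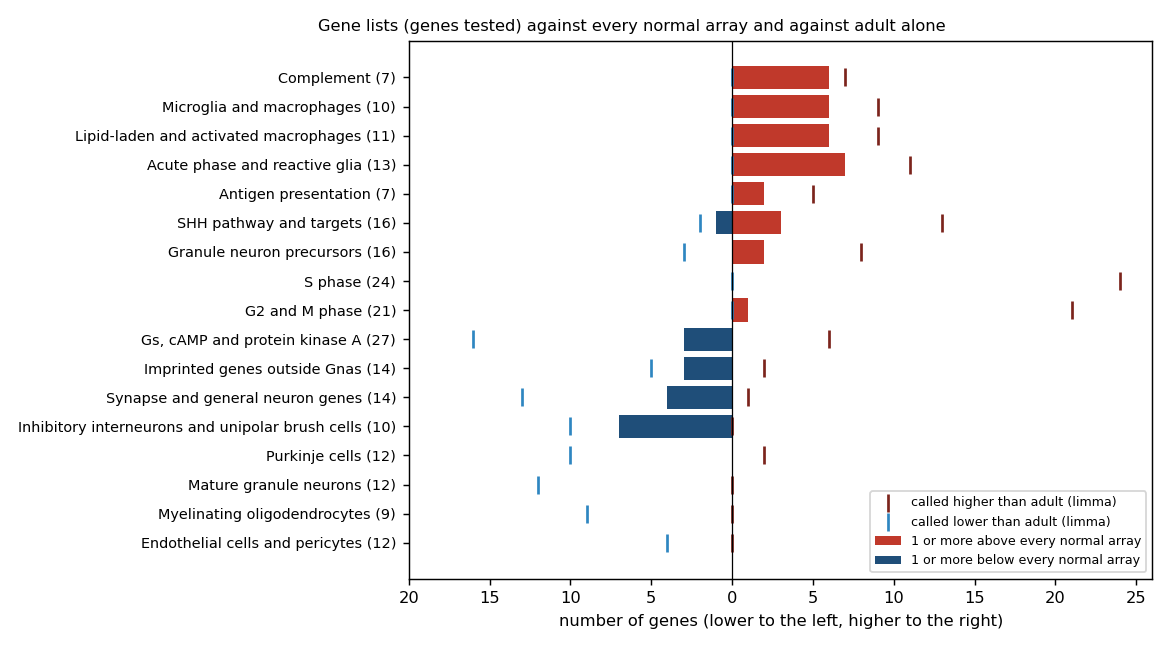
For 17 gene lists (number of genes tested in brackets), bars give how many genes lay at least 1 above (red, right) or below (blue, left) every normal array, and vertical marks how many limma called higher or lower than adult cerebellum alone. Complement keeps 6 of 7 genes under the rule, whereas G2 and M phase keeps 1 of 21 and the S phase, Purkinje, mature granule neuron, myelin and vessel lists keep none. Genes dim on every normal array could be tested only through the tumours.

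Genes known from macrophages and the innate immune response stood among the largest margins upward. The widest margin was that of Lcn2, an iron-binding acute phase protein made by reactive astrocytes and myeloid cells. It lay between 4.19 and 5.73 on the 8 normal arrays and between 9.03 and 12.12 in the tumours (median 11.46), a margin of 5.43. No tumour came closer than 3.30 to the highest normal array, and the lowest was Oligo1 tumour 1, with hGFAP tumour 5 at 10.01. Gpnmb, a lysosomal membrane glycoprotein of lipid-laden macrophages, followed with 4.77 to 6.53 in normal tissue and 8.25 to 11.83 (median 11.28) in the tumours. Here too the groups did not overlap, and the lowest tumour was hGFAP tumour 5.

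Among 11 tested markers of lipid-laden and activated macrophages (14 measured, 2 of them dim on all arrays), 6 were higher: Gpnmb, Spp1, Lgals3, Cst7, Clec7a and Msr1. Gpnmb, Cst7 and Clec7a were dim on every normal array and were tested only through the tumours. Clec7a, the β-glucan receptor Dectin-1, ranged from 3.44 to 4.17 in normal tissue and from 4.23 to 8.39 (median 7.44) in the tumours. Cst7, which encodes the cysteine protease inhibitor cystatin F, reached at most 5.52 in normal tissue and ranged from 6.03 to 9.98 (median 8.25) in the tumours. Neither gene overlapped between the groups. Spp1, the secreted phosphoprotein osteopontin, was more variable in normal tissue, from 5.00 to 8.79, against 8.51 to 11.28 (median 10.38) in the tumours. Lgals3, a galectin of phagocytes, lay 1.67 and Msr1, a scavenger receptor, 1.29 above the highest normal array.

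Of 10 tested markers of microglia and macrophages in general (13 measured, 2 of them dim on all arrays), 6 met the rule: Ptprc, Tyrobp, Fcer1g, Trem2, Cd68 and Cx3cr1. Ptprc, Tyrobp and Trem2 were dim on every normal array and were tested only through the tumours. Ptprc, the leukocyte phosphatase CD45, was 5.88 to 6.48 on the normal arrays and 7.10 to 9.15 (median 7.90) in the tumours, with no overlap. Tyrobp, the signalling adaptor of Trem2, had a median of 9.41 in the tumours against a normal range of 6.34 to 7.15, and Trem2 a median of 8.82 against 6.41 to 7.42. Cx3cr1, the fractalkine receptor of resting microglia, exceeded the highest normal array by 1.04 and was above it in 14 tumours. Laptm5, a lysosomal protein of blood cells, had the largest difference from adult (1.78) among the markers outside the rule and lay 0.83 above the highest normal array.

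The same stretch of the ranking held further genes of myeloid cells. Lyz2 (lysozyme) reached a median of 11.82 in the tumours against 5.77 to 8.29 in normal tissue. Atp6v0d2, a subunit of the proton pump of osteoclasts and macrophages, had a median of 8.00 against 3.52 to 4.63. Cybb, the catalytic subunit of the phagocyte NADPH oxidase, had a median of 9.10 against 4.91 to 6.16. In all 3, hGFAP tumour 5 was within or below the normal range (7.59, 3.12 and 6.08) and the other 15 tumours were above it. Ms4a6c, Ms4a7 and Mpeg1, the last of them a pore-forming protein of macrophages, had margins of 2.68, 2.58 and 2.46. The named genes with the widest gaps between the groups after Lcn2 and Gpnmb were Cxcl10 (0.83), C4b (0.65), the proton channel gene Hvcn1 (0.64), Cd52 (0.62), Ptprc (0.62) and Glipr1 (0.55).

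Markers of other blood cells were examined beside these genes. The mean level of the 13 measured microglia and macrophage markers was 6.66 to 7.01 in adult and 6.46 to 6.97 in developing cerebellum, 6.81 to 8.69 in hGFAP tumours and 7.93 to 9.03 in Oligo1 tumours. Of 12 measured neutrophil and monocyte genes, 11 were dim and only Csf3r, a colony-stimulating factor receptor, was tested. Csf3r lay 1.08 above the highest normal array. None of 10 measured lymphocyte genes and none of 4 measured erythrocyte genes passed the filter. Outside that list, the immunoglobulin heavy chain gene Igh-2 was among the higher genes. Without hGFAP tumour 5 it lay 1.66 above the highest normal array. The mean of the lymphocyte genes was at most 5.08 in adult cerebellum and 5.34 in hGFAP tumours, but 6.43 in Oligo1 tumour 3 and 7.20 in Oligo1 tumour 4. How far these cell types contributed to the other higher genes was not tested.

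Of 12 measured genes of complement, 5 were dim on all arrays (C1ra, C1s, C2, C5ar1 and Cfb) and 7 were tested. Of the 7, 6 met the rule upward (C1qa, C1qb, C1qc, C3, C4b and C3ar1) and none met it downward. The median difference of the 7 was 2.61 from adult and 2.71 from developing cerebellum. C1qc, C4b and C3ar1 were dim on every normal array and were tested only through the tumours. C1qc, a chain of the initiating C1q complex, ranged from 5.28 to 6.99 in normal tissue and from 6.92 to 9.98 (median 9.12) in the tumours. C1qa and C1qb each lay 1.63 above their highest normal array. C4b, which is cleaved next in the classical pathway, ranged from 4.45 to 6.61 and from 7.26 to 9.86 (median 9.18) without overlap. C3, the central component, was higher by 1.90 than the highest normal array but spread widely over the tumours, from 5.95 through 8.87 to 10.87, and 14 tumours exceeded every normal array. C3ar1, a receptor for a C3 fragment, had a median of 9.27 against a normal maximum of 6.96.

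Acute phase and reactive glia genes met the rule for 7 of 13 tested (16 measured): Lcn2, Serpina3n, Steap4, Cxcl10, Cp, Gfap and Saa3. Cxcl10, an interferon-induced chemokine, lay between 5.25 and 5.83 in all normal arrays and between 6.66 and 9.73 (median 8.19) in the tumours. Cp, the copper protein ceruloplasmin, lay between 7.53 and 8.51 and between 9.04 and 10.99 (median 10.48). Gfap, the intermediate filament of astrocytes, separated the groups by only 0.08, since the highest normal level of 9.03 was that of an adult of postnatal day 60 and the lowest tumour stood at 9.11. Its developing mean was 6.29. Serpina3n, a protease inhibitor of reactive astrocytes, was likewise high in adult cerebellum (mean 8.60) and low in developing (6.03), against 11.15 in the tumours. Saa3, an acute phase amyloid protein, had a median of only 6.64 but reached 8.69 in Oligo1 tumour 6 and 9.27 in hGFAP tumour 7. The astrocyte identity genes behaved otherwise: none of 12 met the rule, and Hopx, the one furthest from adult, had means of 8.23 in tumours, 10.11 in adult and 7.71 in developing cerebellum.

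In the antigen presentation list 2 of 7 tested genes (12 measured) met the rule. H2-Aa, a class II chain, ranged from 3.81 to 6.40 in normal tissue and from 5.34 through 8.06 to 11.02 in the tumours, and it passed through the Oligo1 line. H2-K1, a class I heavy chain, ranged from 6.16 to 7.37 and from 7.12 through 8.58 to 10.91. Without hGFAP tumour 5, H2-Ab1 and Cd74 met the rule too, which made 4 of 7. Of 12 tested interferon response genes 1 was higher, Ifit2 (median 7.85 against 5.37 to 6.49), and 8 were called higher than adult cerebellum in limma.

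**Figure D4:**
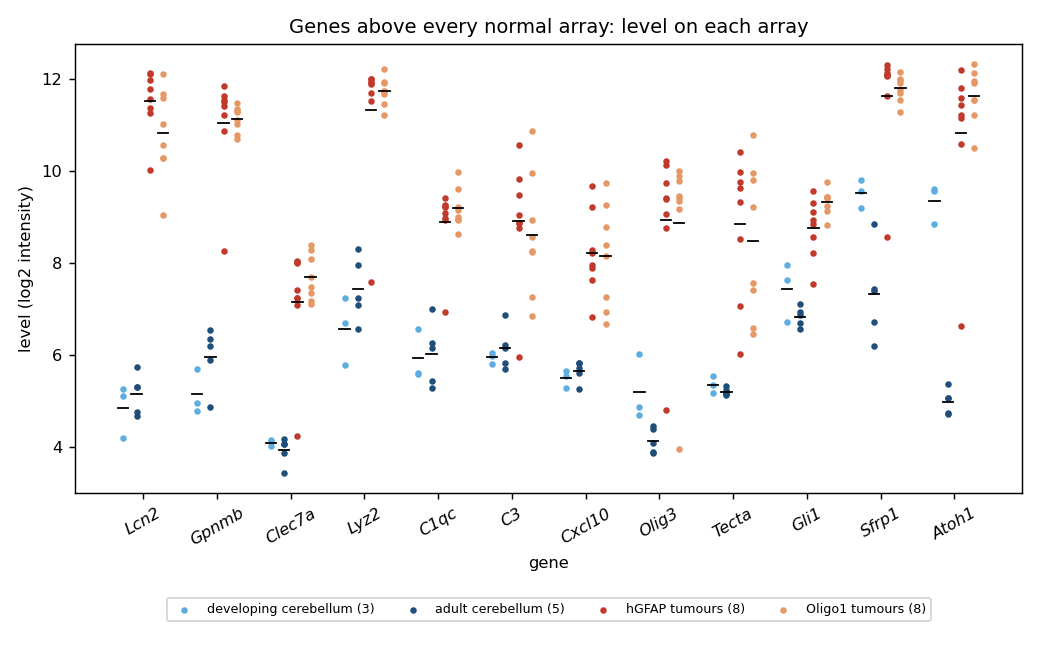
Log2 level on each of the 24 arrays for 12 higher genes, with developing (light blue), adult (dark blue), hGFAP tumour (red) and Oligo1 tumour (orange) arrays side by side and group means as black lines. Lcn2 and Gpnmb show no overlap between tumours and normal arrays, hGFAP tumour 5 is the low red point of most genes, and Atoh1 is at 8.85 to 9.60 in developing but 4.71 to 5.37 in adult cerebellum.

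Promoter sequences were searched because both lists of macrophage genes held higher genes. PU.1 is an ETS-family factor of the myeloid lineage that binds purine-rich sites with the core GAGGAAGT. These letters, or their complement on the other strand, stood in 12 of 177 promoters of higher genes (6.78%), 1 promoter of the lower genes (0.452%) and 289 of 11299 promoters of all tested genes (2.56%). A promoter here is the 300 bases from 250 before to 50 after a start given by RefSeq (GRCm38.p6), and 141 of the 192 higher and 152 of the 208 lower genes had at least 1. The GLI site GACCACCCA, sought in the same way on both strands, was in 1 promoter of the higher genes (0.565%), in none of the lower genes and in 0.195% of all. The cyclic AMP response element TGACGTCA was in 1.13%, 3.17% and 3.02%. No motif contains another, and a match is a description of the sequence and not a binding site.

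Such promoters of 3 genes described here show where the PU.1 letters fall relative to the start. The match (in capitals, on either strand) begins at position -2 in Ctss (chr3:95526536-95526835, plus strand), a cathepsin of antigen-presenting cells, at -195 in C1qc (chr4:136892865-136893164, minus strand) and at -113 in Spp1 (chr5:104434861-104435160, plus strand), where the first base after the start is 1.
Ctss: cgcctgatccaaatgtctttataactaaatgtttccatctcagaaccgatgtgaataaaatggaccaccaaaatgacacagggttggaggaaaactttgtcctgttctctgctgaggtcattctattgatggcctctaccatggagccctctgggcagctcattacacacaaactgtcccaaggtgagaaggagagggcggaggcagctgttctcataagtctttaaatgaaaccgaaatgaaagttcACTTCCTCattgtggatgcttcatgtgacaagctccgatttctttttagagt
C1qc: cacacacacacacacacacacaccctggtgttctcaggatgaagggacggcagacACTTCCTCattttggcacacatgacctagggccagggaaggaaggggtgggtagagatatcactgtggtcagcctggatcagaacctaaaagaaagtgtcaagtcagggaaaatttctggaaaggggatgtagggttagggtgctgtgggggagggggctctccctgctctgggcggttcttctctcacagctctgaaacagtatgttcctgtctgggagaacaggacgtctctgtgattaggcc
Spp1: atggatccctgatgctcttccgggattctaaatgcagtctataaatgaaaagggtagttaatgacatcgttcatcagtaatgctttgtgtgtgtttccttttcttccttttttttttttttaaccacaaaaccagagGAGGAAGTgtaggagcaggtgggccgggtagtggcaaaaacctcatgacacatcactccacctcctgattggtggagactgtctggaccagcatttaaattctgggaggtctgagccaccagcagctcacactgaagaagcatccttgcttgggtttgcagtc

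In the tumours Ctss ranged from 7.34 through a median of 9.48 to 10.53, against 5.64 to 7.55 in normal tissue. Only hGFAP tumour 5 was inside the normal range, as was the case for C1qc and Spp1 above.

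SHH targets and precursor genes were mostly high in developing cerebellum as well. Of 16 tested genes of the SHH list 13 were called higher than adult in limma and 3 met the rule upward: Gli1, Sfrp1 and Atoh1. Gli1, the transcription factor induced by SHH and the usual readout of the pathway, was 6.71, 7.63 and 7.94 at embryonic days 15 and 18 and postnatal day 0, 6.56 to 7.10 in adults, and 7.53 to 9.76 (median 9.18) in the tumours. It lay 1.10 above the postnatal day 0 array. Sfrp1, a secreted WNT antagonist and SHH target, lay between 9.19 and 9.80 in developing cerebellum, between 6.19 and 8.85 in adults and at a median of 11.99 in the tumours. Atoh1, the transcription factor that defines granule neuron precursors, was 8.85 to 9.60 in developing cerebellum, 4.71 to 5.37 in adults and 11.53 at the median of the tumours, with hGFAP tumour 5 at 6.62. Cdon, an SHH co-receptor, met the rule downward, with 8.20 to 9.42 in normal tissue and 5.80 through 6.35 to 9.36 in the tumours. Ccnd2, a cyclin of dividing precursors, differed by 4.28 from adult but by 0.45 from developing cerebellum and was not counted.

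Nhlh1, a transcription factor of newly born granule neurons, was the other precursor gene of 16 to meet the rule (margin 1.39), whereas Insm1, with 11.43 in tumours, 10.65 in developing and 5.41 in adult cerebellum, exceeded the highest developing array by 0.22. Of the 16, limma called 8 higher and 3 lower than adult, and 5 higher and 3 lower than developing cerebellum. Olig3, a transcription factor of the rhombic lip and dorsal hindbrain, was 6.02 at embryonic day 15, at most 4.87 on the other normal arrays and 9.40 at the median of the tumours. The exceptions were hGFAP tumour 5 (4.79) and Oligo1 tumour 6 (3.94), which were within the normal range, and a single probe set measured this gene.

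Cell division genes were higher than in adult cerebellum and rarely lay 1 or more above the developing range. All 24 S phase genes and all 21 G2 and M phase genes were called higher than adult cerebellum in limma, yet none of the former and only Aurka, a mitotic kinase, of the latter met the rule. Aurka ranged from 5.44 to 7.85 in normal tissue, highest at postnatal day 0, and from 6.12 through 9.25 to 9.64 in the tumours. The mean level of the S phase list was 7.81 to 8.84 in developing cerebellum, 6.87 to 9.87 (median 9.43) in hGFAP tumours and 9.42 to 10.09 in Oligo1 tumours, so that every Oligo1 tumour lay above the developing arrays. For the G2 and M phase list it was 8.14 to 9.46 in developing cerebellum and 6.37 to 10.46 (median 9.94) in hGFAP tumours, with a median of 10.32 in Oligo1 tumours, all of them again above the developing arrays. Mki67, a marker of cycling cells, had means of 11.16 in tumours, 10.20 in developing and 5.35 in adult cerebellum, and Mcm6, part of the replicative helicase, 10.06, 8.89 and 5.63. These levels depended on hGFAP tumour 5, where Mki67 was 6.87 and Mcm6 6.43. Without that tumour 5 S phase and 3 G2 and M phase genes met the rule, and the genes called higher than both adult and developing cerebellum numbered 22 rather than 13 of 24 and 21 rather than 6 of 21. Over all genes tested, those meeting the rule upward also rose, from 192 to 262, and so did those called higher in both. The rise was thus not confined to cell division genes.

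Among the 17 tested genes of G1 cyclins, kinases and MYC factors, Cdk6 alone met the rule. Cdk6, the kinase that pairs with D-type cyclins, lay at 11.61 at the median of the tumours against 9.68 at most in normal tissue. Its inhibitor Cdkn2c had a median of 8.95 against a normal maximum of 7.43 and Cdkn2a, which encodes p16 and p19ARF, a median of 6.14 against 5.39, with all 16 tumours above every normal array. Cdkn2c and Cdkn2a were 2 of 6 tested CDK inhibitors, but Cdkn2a passed the filter and met the rule through the Oligo1 line. All 16 tumours lay above every normal array, at any margin, for 0.701% of all genes tested. Of 10 tested p53 target genes, Eda2r, a receptor of the tumour necrosis factor receptor family, and Trp53inp1 met the rule, with margins of 1.96 and 1.05.

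The 15 largest margins upward also included 2 gene models, Gm11428 (now Wfdc17, margin 3.81) and Gm11541 (2.69), which the naming rule passed over, so that C4b and Cxcl10 come after them. Downward it passed over AF357355 (2.56). Tecta, also among the largest margins upward, encodes α-tectorin of the tectorial membrane in the inner ear. It was flat in normal cerebellum, from 5.13 to 5.54, and ranged from 6.01 through 9.28 to 10.77 in the tumours without overlap. Sdpr (now Cavin2), a protein of caveolae, ranged from 5.75 to 6.73 and from 6.24 through 9.48 to 10.16.

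Genes of cerebellar interneurons were among the lower genes. Of 10 tested genes of inhibitory interneurons and unipolar brush cells, 7 met the rule downward (Gad1, Gad2, Slc32a1, Pax2, Eomes, Tcfap2b and Kit), and the median difference of the list was -2.33 from adult and -2.09 from developing cerebellum. Tcfap2b (now Tfap2b) and its relative Tcfap2a (now Tfap2a), AP-2 factors of inhibitory cerebellar precursors, lay between 9.19 and 10.12 and between 8.35 and 10.57 in normal tissue. In the tumours Tcfap2b ranged from 5.33 through 5.76 to 8.39 and Tcfap2a from 4.88 through 5.80 to 7.31, so that both were below the normal range in all 16 tumours, hGFAP tumour 5 included. For Tcfap2a the gap of 1.04 was the widest among the named lower genes.

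Pax2, which marks immature interneurons, was 9.09 to 9.73 in developing cerebellum, 8.02 to 8.34 in adults and 5.92 to 7.43 (median 6.42) in the tumours. Eomes, the T-box factor of unipolar brush cells, an excitatory cell type, varied from 7.43 at embryonic day 15 to 9.94 at embryonic day 18 and ranged from 4.90 through 5.85 to 7.24 in the tumours. Kit, a receptor kinase of molecular layer interneurons, separated the groups by 0.05. The genes that make and load the transmitter GABA overlapped. Gad1 ranged from 10.22 to 11.69 in normal tissue and from 6.02 through 8.27 to 11.17 in the tumours, of which 13 were below every normal array. Gad2 and the vesicular transporter Slc32a1 were below it in 14 and 15 tumours. Slc6a5, the glycine transporter of Golgi cells, had a mean of 7.02 in tumours and missed the rule, being 0.82 below the lowest normal array.

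**Figure D5:**
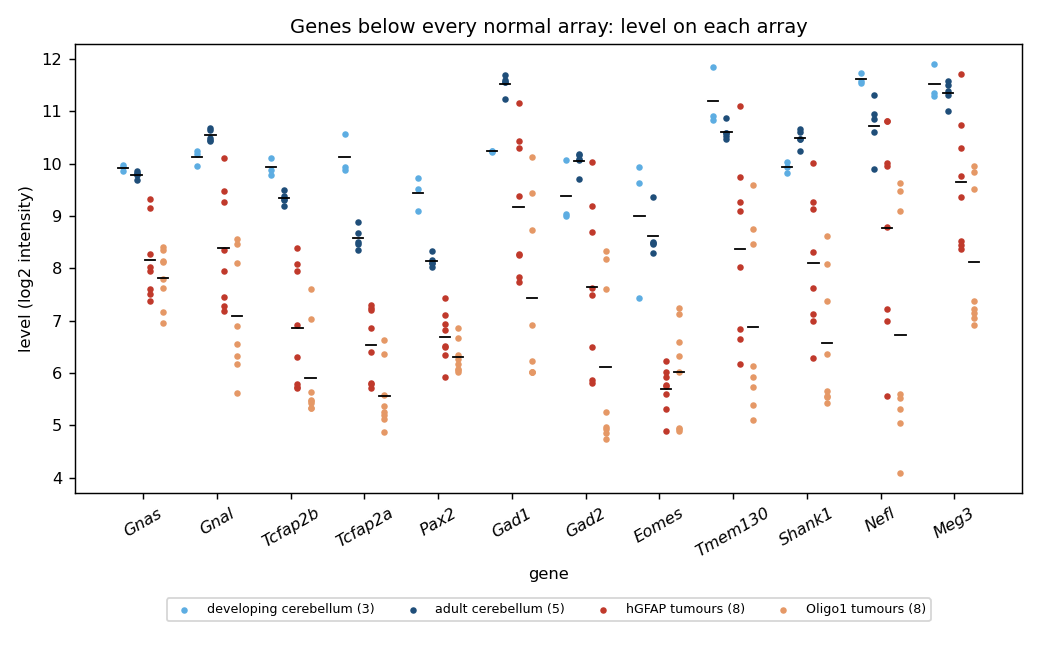
Log2 level on each of the 24 arrays for 12 lower genes, drawn as for the higher genes. Tcfap2b, Tcfap2a, Pax2 and Eomes lie below the normal arrays in all 16 tumours, whereas Gad1, Nefl and Meg3 spread widely and reach the normal range in up to 4 hGFAP tumours.

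The other genes named for their margins downward were of several kinds. Tmem130, a membrane protein, had the largest margin (2.86), with 10.48 to 11.85 in normal tissue and 5.11 through 7.43 to 11.10 in the tumours, where hGFAP tumour 5 reached the normal range. Spock3, a testican proteoglycan, ranged from 9.31 to 9.94 and from 4.78 through 6.66 to 8.43, and Ablim3, an actin-binding LIM protein, from 9.93 to 10.57 and from 5.44 through 7.04 to 9.50. Both separated all 16 tumours from all 8 normal arrays, as did Trank1 and Clstn2, a calsyntenin of postsynaptic membranes. Shank1, a scaffold of excitatory synapses, Cacna2d2, an auxiliary subunit of calcium channels, Hecw1, a ubiquitin ligase, Nrg3, a ligand of ErbB4, Esrrg, an orphan nuclear receptor, and Dpp10, an auxiliary subunit of Kv4 potassium channels, had margins of 2.49, 2.31, 2.71, 2.24, 2.15 and 2.15, and each was inside the normal range in 1 or 2 tumours.

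By the list of synapse and general neuron genes, 4 of 14 tested met the rule downward (Syt1, Syn1, Nefl and Nefm) and 13 were called lower than adult in limma. Syt1, the calcium sensor of vesicle release, ranged from 11.70 to 12.48 in normal tissue and from 7.76 through 9.76 to 11.99 in the tumours. Nefl, the light neurofilament, had the widest spread over the tumours of the 15 lower genes named for their margins, from 4.10 through 8.02 to 10.82 (SD 2.31, n = 16), and 12 tumours were below every normal array. Further lower genes in which all 16 tumours lay outside the normal range were Osr1, a zinc finger factor (gap 0.90), the γ-protocadherin gene Pcdhga2 (0.83), the doublecortin-like kinase gene Dclk1 (0.75) and the protease inhibitor gene Spint2 (0.68). A pair of markers of non-neuronal cells also met the rule downward, each alone in its list. They were 1 of 10 tested fibroblast and meninges genes and 1 of 3 tested choroid plexus and ependyma genes (9 measured). Of the 10, limma called 2 higher and 3 lower than adult cerebellum. The median difference of the 10 was 0.28 from adult and -1.25 from developing cerebellum. Ogn of the meninges ranged from 7.27 to 8.21 in normal tissue and from 4.86 to 6.99 in the tumours, without overlap. Kcnj13, a potassium channel of the choroid plexus, ranged from 7.73 to 11.14 and from 5.12 through 6.20 to 9.65, with 13 tumours below every normal array.

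The lists of mature granule neurons, Purkinje cells and myelin held no gene that met the rule. Developing cerebellum itself lay below adult in these lists, with median differences of -3.23, -2.04 and -3.52. A gene already low in developing tissue had little room to meet the rule downward. None of 12 mature granule neuron genes, 12 Purkinje cell genes or 9 myelin genes was lower than every normal array, although 12, 10 and 9 of them were called lower than adult in limma. Gabra6, a GABA receptor subunit of mature granule neurons, had means of 12.25 in adult, 8.48 in tumours and 4.87 in developing cerebellum. Gsbs, a Purkinje cell phosphoprotein, had means of 10.96, 6.99 and 4.83, and the oligodendrocyte gene Ermn 8.84, 6.02 and 4.15, so that all 3 lay between the adult and the developing level. The mean level of the mature granule neuron list was 11.51 to 11.81 in adults, 7.85 to 8.27 in developing cerebellum, 8.28 to 11.36 in hGFAP tumours and 7.34 to 10.15 in Oligo1 tumours. The part of remaining normal tissue in the levels of the lower genes was not tested.

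Imprinted genes gave 3 lower genes of 14 tested (Meg3, Grb10 and Ndn) and no higher one. Meg3, a long non-coding RNA expressed from the maternal allele, ranged from 11.00 to 11.90 in normal tissue and from 6.92 through 8.94 to 11.72 in the tumours, where hGFAP tumour 5 was the exception. Grb10, an adaptor that restrains insulin signalling, was far higher in developing (mean 10.46) than in adult cerebellum (8.56) and had a median of 7.22 in the tumours. Ndn, the neuronal growth suppressor necdin, was below every normal array in all 16 tumours, with 11.17 to 12.01 against 7.99 through 9.83 to 11.08, from 1 probe set.

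Meg3 stands in the Dlk1 to Dio3 interval of chromosome 12, which carries a large cluster of microRNAs that are likewise expressed from the maternal allele, and these were examined after their values were seen, since microRNA genes were otherwise not named. Of the genes that RefSeq places in the interval, 15 were measured and all 15 were tested. Of them 11 met the rule downward, 9 being microRNA genes, and none met it upward, with a median difference of -1.85 from adult and -1.83 from developing cerebellum. The probe sets measure the precursor or its host transcript and not the mature microRNA, and transcripts of one host are not independent of each other. Dlk1 itself, expressed from the paternal allele, did not share this pattern, with means of 6.88 in tumours, 6.42 in adult and 10.19 in developing cerebellum.

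The mature sequences of 5 of these microRNAs, with 2 of the microRNA genes that were higher, show that no seed was shared. The seed (bases 2 to 8, in capitals) is the stretch that pairs with target messages, and the 21 mature sequences of the 11 microRNA genes among the higher and lower genes held 21 different seeds. Sequences are those of RefSeq, 5′ to 3′.
miR-377-3p: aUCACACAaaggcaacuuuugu
miR-382-5p: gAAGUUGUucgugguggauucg
miR-134-5p: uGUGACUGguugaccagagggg
miR-329-3p: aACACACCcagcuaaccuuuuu
miR-341-3p: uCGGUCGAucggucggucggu
miR-99a-5p: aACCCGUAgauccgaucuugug
let-7c-5p: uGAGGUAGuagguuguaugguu

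Mir377 ranged from 6.80 to 8.44 in normal tissue and from 3.55 through 4.82 to 7.28 in the tumours, and Mir382 from 7.32 to 8.87 and from 4.07 through 5.44 to 8.78. Both were below every normal array in most tumours (14 and 13). Mir341, Mir134 and Mir329 had margins of 1.70, 1.16 and 1.24. The 2 higher microRNA genes, Mir99a and Mirlet7c-1, are neighbours on chromosome 16. Mir99a ranged from 6.56 to 8.43 in normal tissue and from 7.87 through 10.09 to 10.96 in the tumours, and Mirlet7c-1 from 5.31 to 6.64 and from 6.46 through 8.23 to 9.62.

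A cyclic AMP response element stands at position -57 in one RefSeq promoter of Meg3 (chr12:109540746-109541045, plus strand). It is one of the 7 promoters of lower genes with these letters, a share of 3.17% close to the 3.02% of all tested genes, and is shown (match in capitals) because Gnas acts through cyclic AMP.
Meg3: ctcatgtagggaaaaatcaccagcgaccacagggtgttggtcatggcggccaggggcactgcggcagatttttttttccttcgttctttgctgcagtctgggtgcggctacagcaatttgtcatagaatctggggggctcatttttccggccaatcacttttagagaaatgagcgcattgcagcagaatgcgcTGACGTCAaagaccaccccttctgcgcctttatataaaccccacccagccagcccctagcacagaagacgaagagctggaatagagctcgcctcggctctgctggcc

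The tumour lines were compared within the higher and lower genes as a description. The rule uses the mean over both lines, and a gene could pass the filter and the rule through 1 line, so the difference between the lines is not independent of the choice. With the normal arrays and either line alone, 112 of the higher and 94 of the lower genes passed the filter and met the rule. Of the other 80 higher genes, 29 would not have passed the filter without one of the lines. In the fit of all 24 arrays, limma called 29 of the 192 higher genes higher in Oligo1 tumours and 4 higher in hGFAP tumours, where 8.54% and 10.4% of all genes were called higher in Oligo1 and in hGFAP tumours, 18.9% in all. Among the 112, these counts were 6 and 2. Of the 208 lower genes, 96 were higher in hGFAP tumours and none was higher in Oligo1 tumours, and the median difference was 0.87 against -0.05 over all genes. Among the 94, 29 were higher in hGFAP tumours. The spread in that fit is shared with the normal arrays.

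In a fit of the 16 tumours alone 8 of the higher and 5 of the lower genes passed, of which 1 belonged to the 112 (Lama5) and 1 to the 94 (Grik1). Of all 10983 genes tested, that fit called 143 higher in hGFAP and 79 higher in Oligo1 tumours. The 96 also fell to 15 without hGFAP tumour 3, to 15 without hGFAP tumour 6 and to 31 without hGFAP tumour 5, the 3 tumours in which the mean level of the lower genes was highest (8.63, 8.69 and 9.24, against at most 8.12 in the other 13). Over all genes, those higher in hGFAP tumours fell as well, from 1138 to 325, 339 and 666. The count of lower genes depended on Oligo1 tumours as well, with 16, 20 and 34 genes without Oligo1 tumours 1, 3 and 2. Over all genes the counts were then 323, 432 and 610. Leaving out some other tumours raised the count of lower genes, at most to 168 without hGFAP tumour 7, against 1653 over all genes. Among tumours 5 to 8 of each line no lower gene and 2 higher genes differed. Over all genes, 5 were then higher in hGFAP and 5 in Oligo1 tumours.

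The genes with the widest differences between the lines were named for that difference, and their levels are given with no test. Dlx6, a homeobox factor of forebrain inhibitory neurons, was 5.07 to 5.71 in normal cerebellum, 5.29 to 6.49 in hGFAP tumours and 8.18 to 9.89 in Oligo1 tumours. Its neighbour Dlx5 was 6.00 to 7.05 in hGFAP and 7.11 to 8.34 in Oligo1 tumours. Both genes passed the filter and met the rule through the Oligo1 line. Krt10, a keratin, was 7.76 to 9.91 in 7 hGFAP tumours, 6.19 in hGFAP tumour 5 and 5.27 to 6.53 in Oligo1 tumours, and it passed through the hGFAP line. Cd5l, a macrophage-secreted protein, was 5.01 to 5.60 in hGFAP and 5.44 to 8.93 in Oligo1 tumours, and Cdkn2a 5.67 to 6.23 and 5.96 to 8.45, and these passed through the Oligo1 line. Lama5, a laminin chain, was 6.81 to 9.57 in hGFAP and 8.88 to 11.12 in Oligo1 tumours and met the rule in either line.

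Dazl, an RNA-binding protein of germ cells, stood at 11.98, 9.31, 11.30 and 11.00 in Oligo1 tumours 1, 2, 3 and 7 and at 6.55 in Oligo1 tumour 6, and was at most 4.90 in all other tumours and normal arrays. Its mean met the rule although 11 of 16 tumours did not exceed the normal arrays. H2-Aa was 5.34 to 9.39 in hGFAP and 7.90 to 11.02 in Oligo1 tumours, and it too passed through the Oligo1 line. The lower genes Vsnl1, Elmod1, Kndc1, Tmem63c and Dpp10 differed by 2.16, 2.02, 1.88, 1.76 and 1.75 (hGFAP minus Oligo1), and of these Elmod1 and Dpp10 met the rule in either line.

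Developing and adult cerebellum were called different in limma for 26 of the 192 higher genes (22 higher and 4 lower in developing tissue) and for 18 of the 208 lower genes (15 higher and 3 lower), while 20.2% of all genes were called higher and 25.5% lower in developing tissue. The rule favours genes whose normal arrays lie close together, and this count is not independent of it. Grb10, Pax2 and Tcfap2a, with developing above adult, and C4b, Gfap and Serpina3n, with adult above developing, differed by stage in this test and lay outside both ranges in the tumours.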

How the data were processed

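Expression was measured on single-colour Affymetrix arrays of 16 tumours and 8 normal cerebella, 1 array per sample. The deposited table holds log2 intensities of 241576 probe sets. Per the submitters' processing notes, the authors ran RMA, with oligo 1.14 and R 2.15. RMA subtracts background and quantile-normalizes, which removes overall shifts between arrays. The sources used here give no genome build, annotation or scan date.

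Probe sets with 1 gene symbol (213361, from the platform annotation) were combined by median polish into 20893 genes. Symbols were updated through RefSeq GRCm38.p6 synonyms. Genes above the table median (7.61) on at least 3 arrays were kept (10983). Comparisons used limma 3.58.1 (lmFit and eBayes, Benjamini-Hochberg adjustment over all kept genes, adjusted p under 0.05) in R 4.3.3, with 4 groups. The script was tested on simulated data. Members and lists were chosen with earlier results of these data known. Named were Gnas, in each direction the 15 largest margins and 8 widest gaps (without unnamed gene models), members of the lists, the largest line differences, and for lists with no or few members the gene furthest from adult. Other genes named were chosen after their values were seen. The number of arrays limits the precision.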

Additional observations from a re-analysis of the deposited data

Results flagged for a closer look

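The 126 named genes give 378 sets of values in the groups of 8, 8 and 5 arrays, and in 63 of them 1 array lay apart from the rest by Dixon's criterion at the 95% level. Chance alone gives about 1 set in 20. hGFAP tumour 5 was that array in 46 of the 63. Its level lay below those of the other hGFAP tumours, at 10.01 for Lcn2, 8.25 for Gpnmb, 4.23 for Clec7a, 7.59 for Lyz2, 3.12 for Atp6v0d2, 4.79 for Olig3, 6.08 for Cybb, 5.43 for Ms4a6c and 6.03 for Cst7. Further levels below theirs were 5.87 for Ms4a7, 6.24 for Sdpr, 5.87 for Mpeg1, 7.26 for C4b, 6.65 for Hvcn1, 8.55 for Sfrp1, 6.62 for Atoh1, 7.44 for Nhlh1 and 7.35 for Cdk6. It was also lower with 6.12 for Aurka, 5.84 for Cdkn2c, 5.61 for Ifit2, 7.12 for H2-K1, 7.61 for C1qa, 9.61 for C1qb, 6.92 for C1qc, 5.95 for C3 and 6.52 for C3ar1. Lower again were 5.67 for Steap4, 9.04 for Cp, 6.60 for Cx3cr1, 6.95 for Cd68, 6.51 for Tyrobp, 6.92 for Trem2, 8.07 for Fcer1g, 8.51 for Spp1 and 6.64 for Lgals3. To these are added 5.28 for Csf3r, 7.87 for Mir99a, 7.34 for Ctss, 6.43 for Mcm6, 6.87 for Mki67, 8.42 for Insm1, 8.71 for Ccnd2, 8.56 for Laptm5 and 5.99 for Ccl3. The last of these low levels was 4.85 for Cxcl16.

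The other cases fell on several arrays. Oligo1 tumour 6 stood apart with 3.94 for Olig3, 8.69 for Saa3 and 9.21 for Ccl2. hGFAP tumour 7 stood apart with 8.98 for Cd52. Oligo1 tumour 8 stood apart with 11.08 for Cdk6. The array of postnatal day 95 stood apart with 8.14 for Gfap, 10.40 for Ablim3, 11.24 for Gad1, 9.71 for Gad2 and 9.36 for Grm3. The array of the adult of unstated age stood apart with 4.76 for Saa3, 10.87 for Tmem130 and 9.21 for Grb10. The array of postnatal day 122 stood apart with 5.89 for Krt10. The array of postnatal day 60 adult 5 stood apart with 9.37 for Eomes. The array of postnatal day 60 adult 4 stood apart with 10.46 for Tmem63c. Oligo1 tumour 2 stood apart with 11.61 for Ccnd2. 

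The lines of tumours differed in limma, with all 24 arrays in the fit, for 37 of the named genes. Higher in hGFAP tumours, the log2 differences were 1.30 for Gnal, 0.96 for Gfap, 2.82 for Krt10, 1.5 for Hecw1, 1.47 for Ablim3, 1.51 for Shank1, 1.56 for Cacna2d2, 0.99 for Tcfap2a and 1.68 for Nrg3. Others in this direction were 1.75 for Dpp10, 0.86 for Pcdhga2, 1.53 for Meg3, 0.90 for Ndn, 1.73 for Gad1, 0.75 for Syn1, 2.16 for Vsnl1, 2.02 for Elmod1 and 1.88 for Kndc1. There followed 1.76 for Tmem63c, 1.44 for Mir382, 1.03 for Mir134, 1.83 for Ermn, 2.67 for Gabra6, 1.63 for Adcy1, 0.80 for Hopx, 0.75 for Grm2 and 0.77 for Grik1. Higher in Oligo1 tumours, and so negative, were -0.50 for Trp53inp1, -1.41 for Cdkn2a, -1.50 for H2-Aa, -1.31 for Dlx5, -3.25 for Dlx6, -3.35 for Dazl, -2.17 for Cd5l, -1.69 for Lama5, -0.85 for Mir99a and -0.86 for Mirlet7c-1. Some of these genes were named for this difference, and Cdkn2a, H2-Aa, Dlx5, Dlx6, Dazl, Cd5l and Krt10 passed the filter on dim genes and met the rule through the line in which they are high, so that the difference is not independent of their choice. The 96 lower genes called between the lines became 15 without hGFAP tumour 3, 15 without hGFAP tumour 6 and 31 without hGFAP tumour 5. They became 16, 20 and 34 without Oligo1 tumours 1, 3 and 2, and 168 without hGFAP tumour 7. Over all genes, 1138 were higher in hGFAP tumours, and 325, 339, 666, 323, 432, 610 and 1653 in these fits in turn.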

How the results depend on the processing

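Of the 295 values recomputed for the counts and for Gnas over 44 alternative settings, 251 were rated the same. For a count this meant staying within 1.5 times the reported count. For Gnas it meant the same direction and an adjusted p under 0.05. Gnas stayed lower in every setting that allowed the test, by -2.11 to -1.50 from adult (37 settings, largest adjusted p 0.04) and by -2.24 to -1.63 from developing cerebellum (36 settings, largest 0.0363). Leaving out 1 array at a time gave 174 to 289 higher and 184 to 243 lower genes, 629 to 2194 genes called higher and 787 to 1320 called lower than both normal groups, 518 to 3168 between the lines, 3910 to 5814 between the normal stages, and -1.89 to -1.74 and -2.02 to -1.88 for Gnas. The 289 came without postnatal day 0, the 629 without embryonic day 15 and the 2194 without hGFAP tumour 5.

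With a stricter filter (9.34) 93 genes were higher and 132 lower, 678 and 589 were called against both normal groups and 2792 between stages. Array weights gave 2913, 1916, 4335 between the lines and 7641 between stages, and strain as a covariate 141 called higher and 411 called lower. Tumours 1 to 4 gave 310, 334 and 2625 called higher, and tumours 5 to 8 gave 121, 122, 476 and 10 between the lines. Dim levels raised to the filter value left 99 and 123 genes. A margin of 0.5 gave 648 and 629, and a margin of 1.5 gave 90 and 83. In 2 settings chosen after seeing the data, the first run of array numbers alone gave 319, 349 and 2558 called higher, and the second run alone gave 2 between the lines. Tumours against all normal arrays as 2 groups gave 3165 called higher and 2921 called lower. The 4 settings that alter only the model (trend and robust variance, array weights, strain, a block for the run of array numbers) do not enter the counts of higher and lower genes. The cause of these shifts was not tested, other than that the stricter filter tests fewer genes.

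Of 125 named genes besides Gnas, 54 kept their calls in every setting, 67 lost one with strain as a covariate and 13 lost one when some array was left out. The mean of each line was subtracted from each gene, and the remaining deviations of same-numbered tumours were compared. They correlated at -0.50 to 0.59, with 3 of 8 pairs over 0.1 and 2 of 16 tumours closest to their own number. The numbers were therefore not taken as pairs. With the replicate number as a block and tumours only, 181 genes differed between the lines, and without it, in a fit added after seeing the data, 143 were higher in hGFAP and 79 higher in Oligo1 tumours.

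The limits are those of 3 single developing arrays, none between postnatal day 0 and postnatal day 60, and of a strain that differs between all developing arrays and all tumours. For 132 higher genes every normal array was dim, and for 23 lower genes every tumour was.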

Other observations

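Some higher and lower genes outside the lists were read after their values were seen. Chemokine genes were among the higher ones. Ccl2, which draws monocytes, ranged from 5.77 to 6.27 in normal cerebellum and from 6.48 through 7.48 to 9.23 in the tumours, without overlap. Ccl3 had a median of 8.93 against a normal maximum of 7.17, and Cxcl16 a median of 7.69 against 5.96, and for both only hGFAP tumour 5 was not above the normal arrays.

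Transcription factors known from other tissues were also higher. Myod1, the master factor of skeletal muscle, ranged from 5.72 to 6.53 in normal tissue and from 6.36 through 7.97 to 8.62 in the tumours, with Oligo1 tumour 6 as the exception. Tbx1, a factor of the pharyngeal region, had a median of 9.33 against a normal maximum of 7.44, and Alx4, a homeobox factor of limb and skull, 8.74 against 6.06.

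Glutamate receptor genes were among the lower ones. The 4 read here were picked with their values known, and the other receptors of the family were not counted. All 16 tumours lay below every normal array for each of these 4, as they did for 2.02% of all genes tested. Grm2, a metabotropic receptor of Golgi cells, ranged from 7.79 to 9.26 in normal tissue and from 5.13 through 6.19 to 7.42 in the tumours. Grm3, Grik1 and Grik3 had margins of 1.84, 1.40 and 1.42 below the lowest normal array, and the gap between the groups was 0.02, 0.38 and 0.36.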
